A study of Mus musculus with 4 samples.

Results

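The heat shock response and the unfolded protein response of newborn mouse brain were followed here as 36 named genes, which comprised the main cytosolic and mitochondrial chaperones, the chaperones and disulfide isomerases of the endoplasmic reticulum (ER), and the sensors and transcription factors that control them. A gene was found through its RefSeq accession on the array, and where several probes carried the accession the brightest one, by its mean log2 signal over all arrays, stood for the gene. Of the 36 genes, 35 had a probe, among 18825 features tested in all. Hspa1b, a near-identical copy of Hspa1a, had none under its own accession, and the probe of Hspa1a cannot be said to tell both copies apart.

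Gene expression was measured on one-color oligonucleotide arrays, on which a brighter spot means more of the RNA its probe binds. Pregnant C57BL/6J mice received vehicle (Sham) or 100 μg of titanium dioxide nanoparticles per mouse (TiO2-H) into the trachea, and whole brains of the offspring were taken at postnatal day 1. The day of exposure is given as gestational day 10.5 in the treatment protocol and as day 14 in the sample names. Total RNA of 2 offspring per dam was pooled, from 5 dams for Sham and 6 dams for TiO2-H, and 1 pool per exposure and sex was hybridized, which gave 4 arrays. Each exposure therefore had 2 arrays, and litters within a pool were not measured apart. The study's experiment with these groups had 5 Sham and 6 TiO2-H dams in all, so the 2 pools of an exposure came from the same dams. A whole brain holds many cell types, so that fewer cells of a type and less RNA per cell cannot be told apart.

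Signals are given as multiples of the 75th percentile of the signals on the same array, which makes the 4 arrays comparable for 1 probe but does not rank probes against each other. Between 56.2% and 61.2% of the spots on an array were well above background. All 35 genes were well above background on all 4 arrays. Sham and TiO2-H pools occupied separate rows of 1 slide, so that exposure and row cannot be told apart. Xist and the Y-linked mRNAs Eif2s3y and Ddx3y went against the sex labels of both TiO2-H arrays, which are therefore called labelled male and labelled female. The Sham female pool carried some Y-linked mRNA besides Xist: Eif2s3y measured 4.34 (Sham male), 0.527 (Sham female), 0.00738 (labelled TiO2-H male) and 4.99 (labelled TiO2-H female). Its sex label is thus not borne out in full either. The comparison of both TiO2-H pools with both Sham pools does not use these labels. All 10 brain markers were detected on all 4 arrays, as were all 3 skeletal muscle and all 3 skin markers. Of the liver markers, Alb and Apoa1 were detected on none and Afp on all 4. The pituitary hormone Gh was detected in the pool labelled TiO2-H male alone, where Pomc stood at 1.103 against 0.678 to 0.717 in the other pools. The 2 red blood cell markers with a probe summed to 62.5 and 60.0 times the 75th percentile in the Sham pools (male, female) against 51.4 and 51.7 in the TiO2-H pools (labelled male, labelled female), and their part in the values below was not tested.

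Cells meet unfolded protein in the cytosol and in the ER by separate programmes. In the cytosol, heat shock factors such as Hsf1 bind heat shock elements in promoters and raise chaperones of the Hsp70, Hsp90, Hsp40 and small heat shock protein families. In the ER, the sensors Ire1 (Ern1), Perk (Eif2ak3) and Atf6 are activated when unfolded protein draws the chaperone BiP (Hspa5) away. Atf6 and Xbp1, which Ire1 activates by splicing its mRNA, then raise ER chaperones and the machinery of ER-associated degradation, while Perk slows translation and favours Atf4, whose targets include Ddit3 (CHOP) and Trib3.

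These programmes leave short recognisable sequences in promoters, and stretches that hold them are shown as a description of the genes. The motifs were chosen with earlier results of these data known. RefSeq promoter windows of assembly GRCm38.p6, from 250 bases before to 50 bases after a transcription start, held 29 of the members, and windows of Hspa8, Hsp90aa1, Hsp90ab1, Cryab, Hspa9, Hsf1 and Atf6 were not used here. The ER stress element was searched as CCAAT, then 9 bases of any kind, then CCACG, on both strands. It lay in 0.119% of 32851 windows, in 0.137% of the 27025 genes with a window and in 6 of the 29 members (20.7%). The members were listed for these responses, so their higher share is no result of these data. Each stretch is written in the direction of its gene, with the fixed letters of the element in capitals (CGTGG and ATTGG where the element lies on the opposite strand).
Hspa5, chr2:34772000-34772068, plus strand: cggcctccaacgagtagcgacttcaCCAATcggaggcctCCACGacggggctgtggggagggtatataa
Hsp90b1, chr10:86705508-86705681, minus strand: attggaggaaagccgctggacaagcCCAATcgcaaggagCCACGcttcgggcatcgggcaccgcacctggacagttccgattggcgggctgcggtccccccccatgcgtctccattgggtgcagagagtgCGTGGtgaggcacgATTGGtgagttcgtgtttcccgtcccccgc
Calr, chr8:84847050-84847118, minus strand: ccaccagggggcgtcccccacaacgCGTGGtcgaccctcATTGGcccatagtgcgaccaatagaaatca
Canx, chr11:50325775-50325843, minus strand: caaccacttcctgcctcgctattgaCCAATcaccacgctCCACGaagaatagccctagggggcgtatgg
Dnajc3, chr14:118937802-118937870, plus strand: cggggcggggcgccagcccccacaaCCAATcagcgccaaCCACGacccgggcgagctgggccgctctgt
Pdia6, chr12:17266466-17266534, plus strand: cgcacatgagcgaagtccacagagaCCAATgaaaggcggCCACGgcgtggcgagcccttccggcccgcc

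Hsp90b1 carried 2 copies of the ER stress element, at positions -212 to -194 and -107 to -89 from its start, and the other 5 genes carried 1 each, between -162 and -47. The heat shock element was searched as GAA, 2 bases, TTC, 2 bases, GAA, or its reverse order, and lay in 0.603% of the windows. Among the members it was found in Hsph1, Hspd1 and Hspe1. The genes of the mitochondrial chaperonin Hspd1 (Hsp60) and of its partner Hspe1 (Hsp10) lie head to head on chromosome 1, and the same bases, shown from the side of Hspe1 with 2 overlapping elements in capitals, stand before both starts. Hsph1 held 1 element, which lay after both of its annotated starts.
Hspe1, chr1:55088034-55088101, plus strand: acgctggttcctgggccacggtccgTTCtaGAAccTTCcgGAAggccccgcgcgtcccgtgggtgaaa
An ATF4 element (TGATG, 1 base of any kind, AA, either strand) lay in 3.97% of the windows and in Trib3, after its start, and Herpud1, where the capitals mark it on the opposite strand.
Herpud1, chr8:94386292-94386349, plus strand: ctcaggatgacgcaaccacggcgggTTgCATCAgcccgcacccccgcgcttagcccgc
The UPR element (TGACGTGG, either strand) lay in 0.676% of the windows and in none of those of the members. A match is a description of letters, and no match says only that these letters are not in this window.

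**Figure D1:**
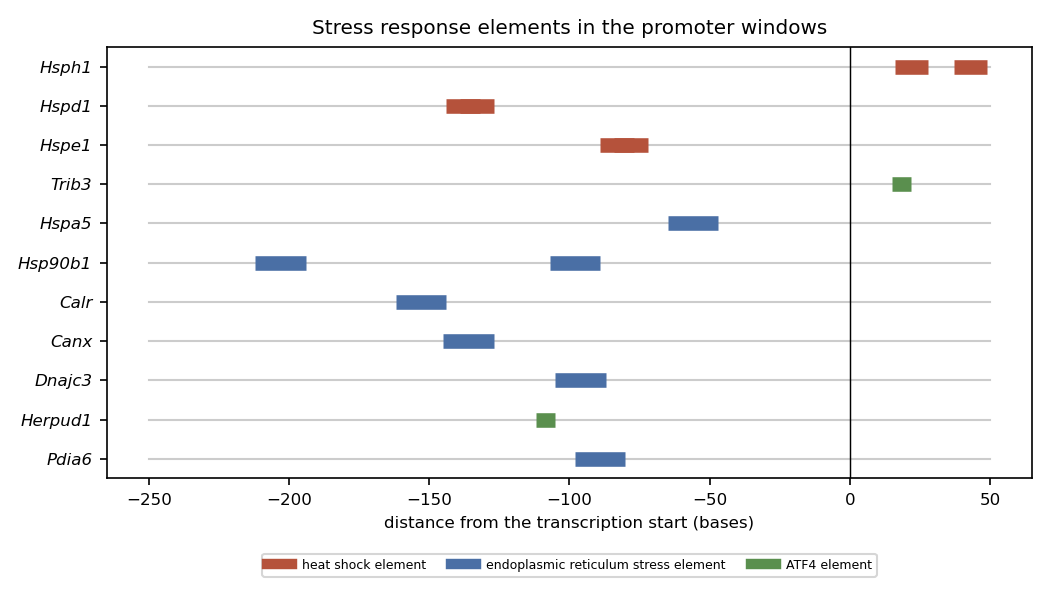
Positions of the heat shock, ER stress and ATF4 elements (colored bars) in the promoter windows of the 11 members with at least 1 of them. The x axis is the distance in bases from the transcription start over the whole window. The ER stress elements sit between -212 and -47, the element of Trib3 (ATF4) lies after the start, and the 2 bars of Hsph1 are the same heat shock element measured from each of its 2 annotated starts.

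No member passed the test of TiO2-H against Sham. With limma and Benjamini-Hochberg adjustment over 18825 features, 0 of 35 members and 0 features in all (0%) had an adjusted p under 0.05, and the lowest adjusted p of a member was 0.293. The differences were small. Of the 8 genes in the class of ER chaperones, 5 had higher signals in both TiO2-H pools with scaling between arrays and 7 without it, and Xbp1 was higher in both pools either way. Hspb8, Herpud1 and the brightest probe of Hspa4 had lower ones in both pools, also with and without scaling. Before adjustment, limma gave a p under 0.05 with a higher signal for 8 members (22.9%, against 10.2% of all features) and with a lower signal for 4 members (11.4%, against 5.44%). Both TiO2-H pools lay above both Sham pools for 11 members (31.4%, against 29.1% of all features), and below for 8 (22.9%, against 24.2%). The separate-pool counts were thus close to the background with scaling, and the counts by unadjusted p above it in both directions. That excess depended on the features compared and on the scaling. Of the features well above background on all 4 arrays, as all members were, 3364 of 16602 had an unadjusted p under 0.05 in limma, beside 12 members. Without scaling 5512 of 18825 features did, again beside 12 members. Without scaling between arrays the separate-pool counts became 27 above (77.1%, against 60.0% of all features) and 3 below (8.57%, against 5.07%). The median of all features moved from 0.02 to 0.13 on the log2 scale. The median log2 difference of the members was 0.02 with scaling and 0.13 without, and so followed all features.

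The folds over the members ran from 0.845 to 1.19. At the thresholds of the study's methods, 0 members reached 1.5-fold on the arrays labelled male (2.82% of all features) or labelled female (3.07%). None was as low as 0.67-fold on either pair (2.24% and 2.22% of all features). Between the 2 Sham arrays, 2.11% of features reached the upper threshold, female over male, and 2.72% the lower one, again with 0 members. The limma standard errors of the members' log2 differences ran from 0.03 to 0.09, with a median of 0.05. The scanner software's own error estimate for the same difference was between 0.14 and 0.15 for every member. With 2 arrays on each side, the smallest p of an exact permutation test is 0.33.

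**Figure D2:**
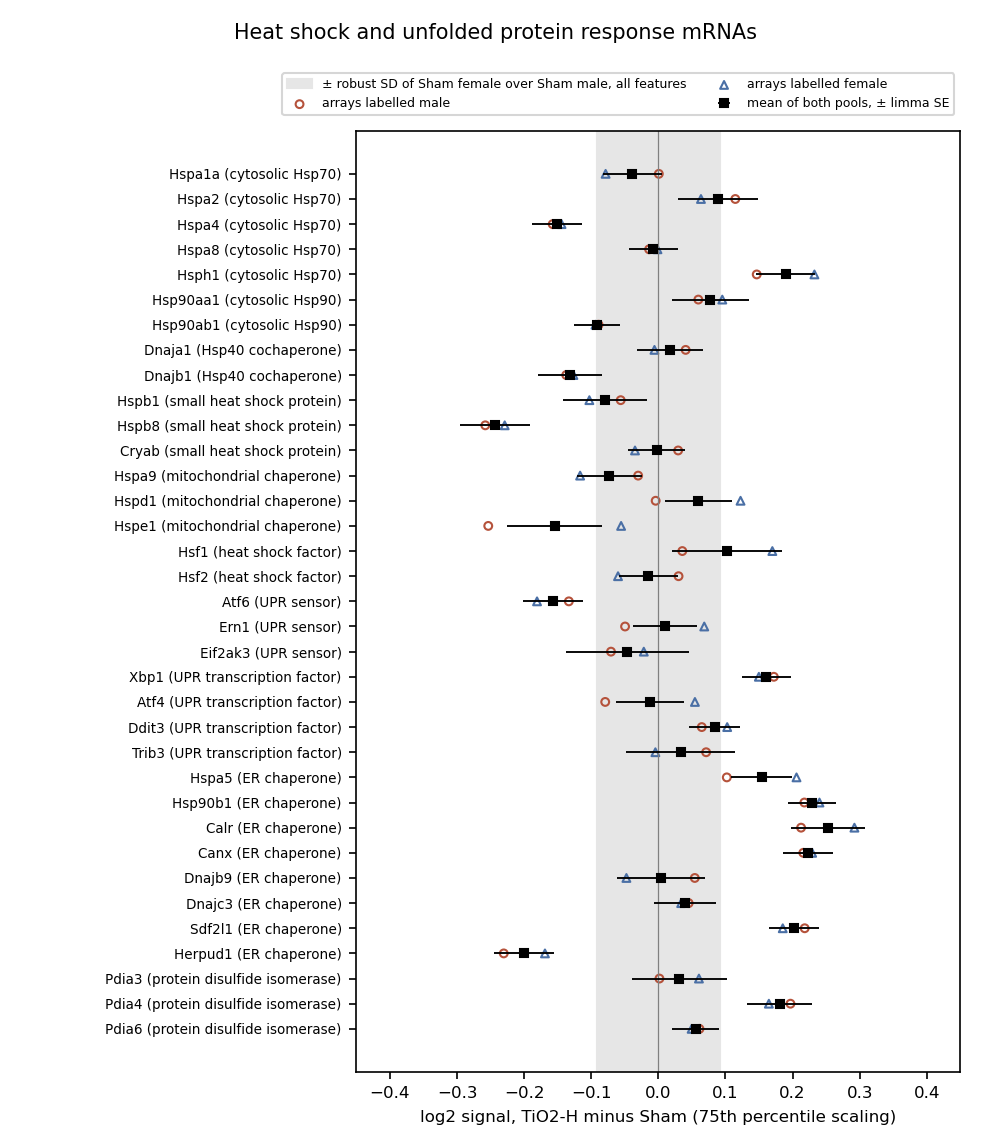
Log2 difference of TiO2-H minus Sham (x axis) for the 35 members with a probe, by class; squares are the mean of both pools with the limma standard error, circles and triangles the arrays labelled male and female, and the grey band is the robust SD of the ratio of the 2 Sham arrays over all features (0.09). The band is the spread of a ratio of single arrays, as the circles and triangles are, and not of a difference of means. Calr, Hsp90b1, Canx and Sdf2l1 lie farthest to the right, between 0.20 and 0.25, and Hspb8 and Herpud1 farthest to the left, at −0.24 and −0.20.

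The 8 genes of the class of ER chaperones had a median log2 difference of 0.18, beside 0.02 for all features. Of these genes 5 were higher in both TiO2-H pools (29.1% of all features), 1 was lower in both (24.2%) and 2 had overlapping pools. Without scaling the median was 0.29, beside 0.13 for all features, with 7 higher (60.0% of all features) and 1 lower (5.07%). The 9 further genes of ER folding outside the members had a median of −0.005 with scaling, with 2 higher and 1 lower. Some markers of cell types moved by similar amounts, in both directions. Of the 10 brain markers 5 were higher in both TiO2-H pools, with log2 differences of 0.19 (Snap25), 0.18 (Fabp7), 0.16 (Map2), 0.15 (Dcx) and 0.05 (Sox2). Another 2 were lower, Gfap at −0.10 and Tubb3 at −0.05. The pools overlapped for Stmn2 (−0.01), Olig2 (0.01) and Neurod1 (0.04). The summed signal of the brain markers was 417 to 424 in the Sham pools against 428 to 443 in the TiO2-H pools. Of the 4 microglia markers 3 were higher and 1, C1qa, lower at −0.15 (sum 12.68 to 13.04 against 13.78 to 13.96). Of the 3 endothelial markers 1 was higher (Cldn5 at 0.17, sum 6.79 to 7.13 against 7.77 to 7.84). Hba-a1 of red blood cells was lower, at −0.25. The part of cell makeup in the values of the members was not tested.

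Calr encodes calreticulin, a lectin chaperone that binds glycoproteins and calcium in the ER lumen. Its signals were 9.12 (Sham male), 8.47 (Sham female), 10.6 (labelled TiO2-H male) and 10.4 (labelled TiO2-H female). The exposures did not overlap, and the Sham pools differed more from each other than the TiO2-H pools did. The fold was 1.19, with a log2 difference of 0.25 ± 0.06 (SE, 95% interval 0.08 to 0.42) and an adjusted p of 0.294 in limma, the largest difference among the members.

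Canx encodes calnexin, the membrane-bound counterpart of calreticulin. Its signals were 24.5 (Sham male), 24.8 (Sham female), 28.5 (labelled TiO2-H male) and 29.1 (labelled TiO2-H female). The pools of an exposure lay close together and those of different exposures apart. The log2 difference was 0.22 ± 0.04 (SE, 1.17-fold, limma adjusted p 0.293). Hsp90b1 (Grp94), the Hsp90 of the ER, showed the same order, with 12.3 on both Sham arrays, 14.3 on the array labelled TiO2-H male and 14.5 on that labelled TiO2-H female. Its log2 difference was 0.23 ± 0.04 (SE, 1.17-fold, limma adjusted p 0.293). Hspa5 encodes BiP, the Hsp70 of the ER and the usual reporter of the unfolded protein response. Its signals were 17.1 (Sham male), 16.6 (Sham female), 18.35 (labelled TiO2-H male) and 19.2 (labelled TiO2-H female). The pools did not overlap, but the difference was smaller than for Grp94, at 0.15 ± 0.05 (SE, 1.11-fold, limma adjusted p 0.303).

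Sdf2l1, which works with BiP and its J-domain partners in the ER, had signals of 0.263 on both Sham arrays, 0.3055 on the array labelled TiO2-H male and 0.299 on that labelled TiO2-H female. The Sham pools were nearly equal and both TiO2-H pools were higher, by 0.20 ± 0.04 on the log2 scale (SE, limma adjusted p 0.293). The other J-domain genes of the class gave little difference. Dnajb9 (ERdj4), a target of Xbp1, differed by 0.00 ± 0.07 (SE), and Dnajc3 (p58IPK), which has an ER stress element, by 0.04 ± 0.05 (SE), with overlapping pools for both genes. Herpud1, a membrane protein of ER-associated degradation that was placed in this class although it is no chaperone, went the other way. Its signals were 5.54 (Sham male), 5.27 (Sham female), 4.72 (labelled TiO2-H male) and 4.69 (labelled TiO2-H female). The TiO2-H pools lay below the Sham pools, at a log2 difference of −0.20 ± 0.04 (SE, 0.871-fold, limma adjusted p 0.295).

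Of the 3 protein disulfide isomerases, which form and rearrange disulfide bonds in ER clients, 2 were higher in both TiO2-H pools and 1 overlapped. Pdia4 (ERp72) had signals of 0.424 (Sham male), 0.446 (Sham female), 0.486 (labelled TiO2-H male) and 0.5004 (labelled TiO2-H female). The pools of the exposures were separate, with a log2 difference of 0.18 ± 0.05 (SE, limma adjusted p 0.298). Pdia6 was higher by only 0.06 ± 0.04 (SE), and Pdia3 (ERp57), the partner of calreticulin and calnexin on glycoproteins, by 0.03 ± 0.07 (SE) with overlapping pools.

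Members and motifs were chosen with earlier results of these data known, so the values by promoter are a description only. The 6 members with an ER stress element had log2 differences from 0.04 to 0.25 with a median of 0.19. In 5 of them, all but Dnajc3, both TiO2-H pools were above both Sham pools. Over all features, 29.1% were above and 24.2% below. The 13 other tested genes with the same element had a median of 0.04 and ran from −0.43 to 0.18, with 4 above and 2 below. A part of the element in these values was not tested. Sdf2l1, Pdia4, Xbp1, Hsph1, Hspa2 and Ddit3 were also higher in both TiO2-H pools, without a match to the element in the window.

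**Figure D3:**
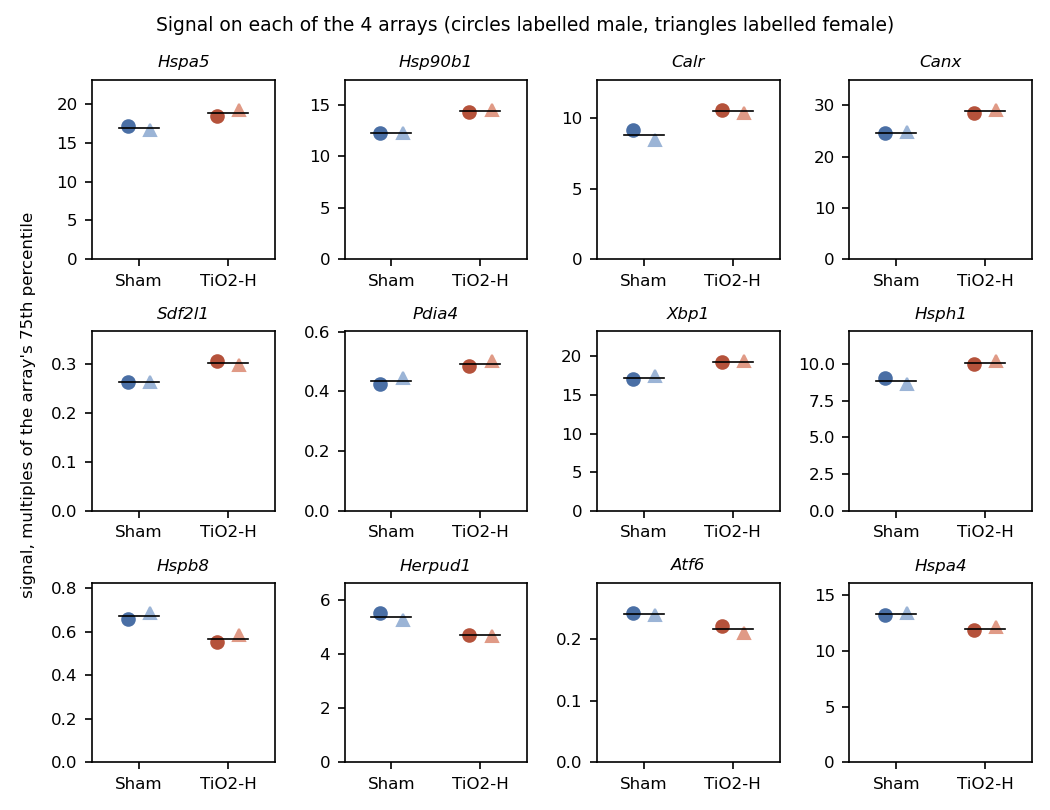
Signal on each of the 4 arrays (y axis, multiples of the array's 75th percentile, starting at 0) for the 10 members with the largest log2 differences plus Hspa5 and Hspa4; circles are arrays labelled male, triangles arrays labelled female, and bars the mean of the 2 pools on the log2 scale. In each panel the pools do not overlap, yet the folds lie only between 0.845 (Hspb8) and 1.19 (Calr).

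Among the transcription factors of the unfolded protein response, Xbp1 had the largest difference. Its signals were 17.1 (Sham male), 17.4 (Sham female), 19.2 (labelled TiO2-H male) and 19.3 (labelled TiO2-H female). The TiO2-H pools lay above the Sham pools, by 0.16 ± 0.04 on the log2 scale (SE, limma adjusted p 0.295), and the splicing of its mRNA was not analysed here. Ddit3 encodes CHOP, the factor that links prolonged ER stress to cell death. It measured 0.701 (Sham male), 0.683 (Sham female), 0.734 (labelled TiO2-H male) and 0.7335 (labelled TiO2-H female). The pools did not overlap, but the log2 difference of 0.08 ± 0.04 (SE, limma adjusted p 0.384) was small. In absolute size it stood at percentile 45.9 of all features.

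Atf4, whose translation is favoured when Perk is active, had signals of 53.6 (Sham male), 51.5 (Sham female), 50.8 (labelled TiO2-H male) and 53.5 (labelled TiO2-H female). The pools overlapped, with a log2 difference of −0.01 ± 0.05 (SE). Its second probe was lower in both TiO2-H pools, by −0.17. Trib3, a pseudokinase induced by Atf4 and CHOP, differed by 0.03 ± 0.08 (SE), with overlapping pools.

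Of the 3 sensors, 1 was lower in both TiO2-H pools and 2 overlapped. Atf6, the precursor of a transcription factor that is cut free from the membrane, had signals of 0.242 (Sham male), 0.238 (Sham female), 0.2205 (labelled TiO2-H male) and 0.210 (labelled TiO2-H female). Its log2 difference was −0.16 ± 0.05 (SE, 0.897-fold, limma adjusted p 0.300) with scaling, and without it −0.04 with overlapping pools. Ern1, which encodes Ire1, measured 0.246 (Sham male), 0.237 (Sham female), 0.237 (labelled TiO2-H male) and 0.248 (labelled TiO2-H female). The kinase gene Eif2ak3 (Perk) measured 1.22 (Sham male), 1.33 (Sham female), 1.16 (labelled TiO2-H male) and 1.31 (labelled TiO2-H female). For both genes the pools overlapped, with log2 differences of 0.01 ± 0.05 and −0.05 ± 0.09 (SE).

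In the cytosolic Hsp70 family 2 genes were higher in both TiO2-H pools, 1 was lower and 2 overlapped, the latter including the usual marker of heat shock. Hspa1a, the stress-inducible Hsp70, had signals of 0.383 (Sham male), 0.386 (Sham female), 0.383 (labelled TiO2-H male) and 0.366 (labelled TiO2-H female). The log2 difference was −0.04 ± 0.04 (SE, 95% interval −0.17 to 0.09) with overlapping pools. The interval measures only the spread between arrays and not that between litters. The scanner software's own error of this difference was 0.15. Hspa8 (Hsc70), the constitutive member, had 183 (Sham male), 179.7 (Sham female), 181 (labelled TiO2-H male) and 179.5 (labelled TiO2-H female). Its 4 signals spanned a narrow range, and the log2 difference was −0.01 ± 0.04 (SE). Hspa2, an Hsp70 best known from the testis, differed by 0.09 ± 0.06 (SE, limma adjusted p 0.507), with separate pools.

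Hsph1 and Hspa4 both belong to the Hsp110 family, which exchanges the nucleotide of Hsp70. Hsph1 had signals of 9.06 (Sham male), 8.66 (Sham female), 10.03 (labelled TiO2-H male) and 10.2 (labelled TiO2-H female). The TiO2-H pools were the higher ones, by 0.19 ± 0.04 on the log2 scale (SE, limma adjusted p 0.295), and its second probe was higher in both as well, by 0.16. Hspa4 measured 13.3 (Sham male), 13.4 (Sham female), 11.9 (labelled TiO2-H male) and 12.15 (labelled TiO2-H female) on its brightest probe. Here the TiO2-H pools were the lower ones, by −0.15 ± 0.04 (SE, limma adjusted p 0.295). The other 2 probes of the same Hspa4 accession gave the opposite order, with log2 differences of 0.35 and 0.37 and no overlap between exposures, so that the direction for Hspa4 rests on the choice of probe.

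**Figure D4:**
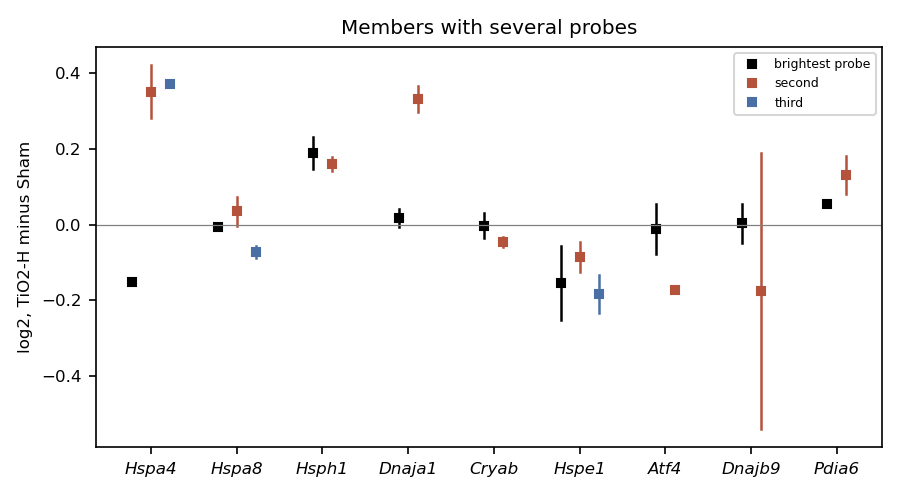
Log2 difference of TiO2-H minus Sham (y axis) for each probe of the 9 members with 2 or 3 probes; squares are the mean of both pools and vertical lines join the values of the arrays labelled male and female. The probes of Hsph1, Hspe1 and Pdia6 lie on one side of 0, whereas those of Hspa4 lie at −0.15, 0.35 and 0.37.

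The other members with several probes varied as well. Dnaja1, an Hsp40 that delivers clients to Hsp70, differed by 0.02 ± 0.05 (SE) on its brightest probe and by 0.33 on its second. The second probe of Dnajb9 gave −0.54 on the arrays labelled male and 0.19 on those labelled female, and the Sham arrays differed on it by −0.61, female minus male. The 3 probes of Hspa8 gave −0.01, 0.03 and −0.07, and the second probe of Pdia6 gave 0.13.

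The remaining cytosolic chaperones are Hsp40 and Hsp90 proteins. Dnajb1, the main stress-inducible Hsp40, was lower in both TiO2-H pools by −0.13 ± 0.05 with scaling (SE, limma adjusted p 0.335), a difference of −0.02 without it. Hsp90ab1, the constitutive Hsp90, was lower in both by −0.09 ± 0.03 with scaling (SE, limma adjusted p 0.347) and differed by 0.02 without it, while Hsp90aa1, the inducible form, had overlapping pools and a log2 difference of 0.08 ± 0.06 (SE).

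The small heat shock proteins hold unfolded protein in a soluble state without using ATP. Hspb8 had signals of 0.661 (Sham male), 0.687 (Sham female), 0.553 (labelled TiO2-H male) and 0.586 (labelled TiO2-H female). The TiO2-H pools lay below the Sham pools, and the log2 difference of −0.24 ± 0.05 (SE, 95% interval −0.40 to −0.08, 0.845-fold, limma adjusted p 0.293) was the lowest of the members. Hspb1 (Hsp27), a classical target of heat shock factors, measured 2.34 (Sham male), 2.535 (Sham female), 2.25 (labelled TiO2-H male) and 2.36 (labelled TiO2-H female). Its pools overlapped, with a log2 difference of −0.08 ± 0.06 (SE). Cryab, the αB-crystallin of glia and muscle, overlapped too, at 0.00 ± 0.04 (SE).

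Hsf1 and Hsf2 encode the heat shock factors themselves. Hsf1 measured 1.482 (Sham male), 1.30 (Sham female), 1.52 (labelled TiO2-H male) and 1.47 (labelled TiO2-H female). The Sham female array stood below the other 3 and the pools overlapped, with a log2 difference of 0.10 ± 0.08 (SE). Hsf2 differed by −0.02 ± 0.04 (SE), also with overlapping pools.

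The mitochondrial chaperones fold proteins imported into the matrix. Hspe1 was lower in both TiO2-H pools on each of its 3 probes, by −0.15 ± 0.07 (SE, limma adjusted p 0.388) on the brightest and by −0.09 and −0.18 on the others, and the brightest probe gave −0.04 without scaling. Its head-to-head neighbour Hspd1, with which it shares the heat shock elements shown above, had overlapping pools and a log2 difference of 0.06 ± 0.05 (SE). Hspa9 (mortalin), the mitochondrial Hsp70, was lower in both by −0.07 ± 0.05 with scaling (SE, limma adjusted p 0.503) and differed by 0.04 without it.

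**Figure D5:**
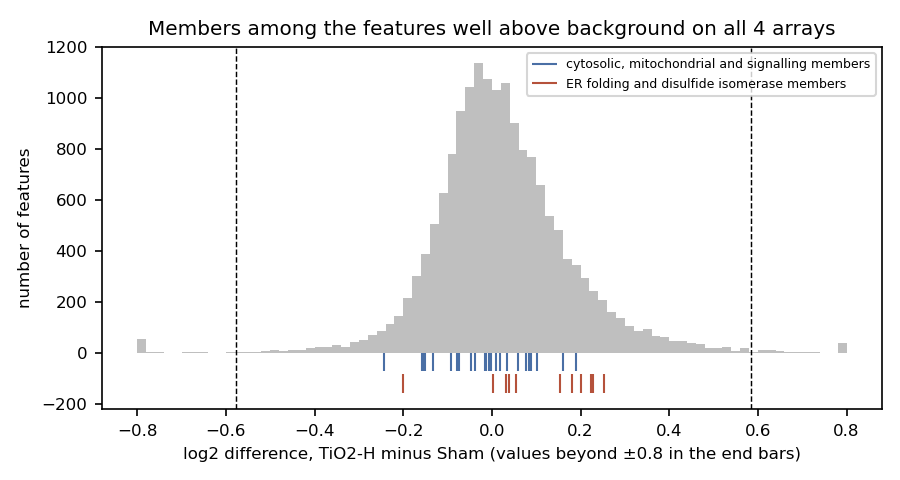
Number of features (y axis) by log2 difference of TiO2-H minus Sham (x axis) among the 16602 features well above background on all 4 arrays, with the 35 members as ticks below the axis (red for the ER chaperone and disulfide isomerase classes, blue for the others) and dashed lines at 1.5-fold and 0.67-fold. The members spread about as widely as all features (robust SD 0.13 for both), and none reaches a dashed line.

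The wider pathway was followed in 103 further genes listed with the same programmes, of which 100 were tested. Both TiO2-H pools were above both Sham pools for 20 of them (20%, against 29.1% of all features) and below for 33 (33%, against 24.2%), the median log2 difference was −0.02, and 0 had a limma adjusted p under 0.05 (6 higher and 7 lower at an unadjusted p under 0.05). Without scaling the counts were 58 above (58%, against 60.0% of all features) and 5 below (5%, against 5.07%). The subunits of the chaperonin CCT, which folds actin and tubulin, were lower in both pools for 7 of 8, with a median log2 difference of −0.07, which turned to 0.04 without scaling with 3 higher and 0 lower. Of 14 listed targets of Atf4, 6 were lower in both pools and 0 higher, against 1 lower and 6 higher without scaling. The 9 further genes of ER folding, in contrast with the ER chaperones among the members, had a median log2 difference of 0.00, with 2 higher, 1 lower and 6 overlapping, and of 0.11 without scaling, still below that of all features.

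The largest lower signal of these genes was that of Eif2ak2 (Pkr), a kinase of eIF2α that responds to double-stranded RNA. It measured 0.1425 (Sham male), 0.1865 (Sham female), 0.107 (labelled TiO2-H male) and 0.0970 (labelled TiO2-H female). The TiO2-H pools were the lower ones, by −0.68 ± 0.16 on the log2 scale (SE, limma adjusted p 0.295), but the Sham pools were also apart. The next were Cebpb at −0.27, the mitochondrial co-chaperone Grpel2 at −0.23, the adaptor Traf2 at −0.19 and Hspa14 at −0.18. A second probe of Traf2 gave −1.45, with 0.209 (Sham male), 0.207 (Sham female), 0.0746 (labelled TiO2-H male) and 0.0771 (labelled TiO2-H female). Its pools were far apart, and the size for Traf2 rests on the choice of probe. The largest higher signals were those of Hspa12b at 0.28, the Hsp90 co-chaperone Chordc1 at 0.24, Eif2s1, which encodes eIF2α, at 0.21 (0.05 with overlapping pools on its second probe), the Hsp70 co-chaperone St13 at 0.18 and the collagen chaperone Serpinh1 at 0.15. Their limma adjusted p-values lay between 0.293 and 0.328. Hsf4 was detected in the Sham male pool alone, with a signal of 1.013, and no fold is given for it.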

How the data were processed

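The authors deposited scanner output of 4 one-color arrays and a value table, both holding the same intensity for all 59305 non-control spots (within a relative tolerance of 0.0001), made with Agilent Feature Extraction 10.10.1.1 by background subtraction and with no scaling between arrays. Here, outlier spots were left out, intensity was divided by the array's 75th percentile, log2 was taken, and spots were averaged per probe. Signals not well above background were raised to the array's lowest signal well above background where they fell below it. A feature was tested where at least 1 array was well above background. Accessions were named through RefSeq (GRCm38.p6). Exposures were compared with limma 3.58.1 in R 4.3.3 and Benjamini-Hochberg adjustment over all features, other steps with Python 3.11.15, pandas 2.3.3, numpy 2.4.6 and matplotlib 3.10.9. The fits were tested on simulated data with independent arrays and changes far larger than those of the members. That run does not show whether differences as small as theirs would be found. Within a sex label, 1 array per exposure allowed no p-value. All members are named; 4 signals are given for the 10 largest differences and for stress sensors and markers, and of the wider pathway the 5 largest differences in each direction with separate pools are named. Members, lists and motifs were chosen with earlier results of these data known. The 2 pools of an exposure came from the same dams and are not independent replicates. Standard errors, intervals and p-values therefore measure only the spread between arrays. Alternatives were no scaling, quantile normalization, normexp with an offset of 50 on median signals, other filters, floors and probes, outliers kept, the value table, other thresholds, the sex label as a block and leaving out each array. Protein sequences were not analysed here.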

Additional observations from a re-analysis of the deposited data

How the results depend on the processing

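The number of members past a limma adjusted p of 0.05 was 0 under every alternative run on all 4 arrays. The lowest adjusted p of a member was 0.116, without scaling. In the main fit 12 members had an unadjusted p under 0.05, beside 2948 of 18825 features. Without scaling 12 members did, beside 5512 of 18825 features. With only probes well above background on all 4 arrays 12 did, beside 3364 of 16602 features. The share of all features thus changed with the setting. With an array left out, its exposure has 1 array, which limma takes to vary like the pair of the other exposure. No counts are given for these fits. With the sex label as a replicate block, 0 members passed an adjusted p of 0.05 in limma. There, 7 had an unadjusted p under 0.05 and the lowest adjusted p was 0.451. With the labels crossed within TiO2-H these values were 0, 7 and 0.452. The counts past 1.5-fold and 0.67-fold stayed at 0 under every alternative run. Without scaling, 27 members lay above and 3 below (60.0% and 5.07% of all features), and the median log2 difference was 0.1318, beside 0.1296 for all features. The median was 0.0334 with the mean of a gene's detected probes and 0.0349 with the second brightest probe. Leaving out each array in turn gave between 15 and 16 members above, 10 to 14 below (14 without the Sham male array), and a median between −0.0003 (without the array labelled TiO2-H female) and 0.0426 (without that labelled TiO2-H male). For the counts above and below, leaving out arrays was added after the data were seen. With 1 array left in an exposure separate pools are easier to reach for every feature. The share of all features is not given here for these runs, so the larger counts say nothing on the members. Of 490 values of single members under the alternatives, 36 had another sign, and 20 of 35 members never changed sign, among them Hspa5, Hsp90b1, Calr, Canx, Sdf2l1, Pdia4, Xbp1 and Hsph1 (higher) and Hspb8, Herpud1 and Atf6 (lower). Hspa4 moved from −0.15 to 0.35 and Dnaja1 from 0.02 to 0.33 with the second brightest probe. All member probes were well above background on all 4 arrays, so other filters and floors could not change a member's log2 difference. The value table held the same intensities, and other probes could change only the 9 members with several. Much of this stability of sign was therefore fixed in advance.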
